A study of Mus musculus with 8 samples.

Results

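The cardiac transcription factors followed here were 10 of the 32285 genes in each count matrix: Gata4, Gata6, Mef2a, Mef2c, Mef2d, Tbx5, Tbx20, Nkx2-5, Hand2 and Tcf21. They were taken by symbol, with no threshold on their values. All 10 symbols were found, and each is described over the cell types, the states of cardiomyocytes and the libraries of a single-nucleus RNA study of the adult mouse heart.

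These proteins bind DNA and, in several combinations, switch on the genes of the contractile heart. GATA4, GATA6, NKX2-5, TBX5, TBX20, HAND2 and the MEF2 proteins act together in the embryo to specify the heart and its chambers, and some of them bind one another directly. TCF21 is best known for the epicardium and for the fibroblasts that derive from it. MEF2 proteins also work far from the heart muscle, among others in B lymphocytes, macrophages, smooth muscle and endothelium, where their activity is held down by class II histone deacetylases.

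The hearts came from adult female and male mice on a wild-type background, either non-transgenic (nTg) or transgenic (Tg) for constitutive expression of CCNA2, the cell-cycle protein cyclin A2. The promoter of the transgene and the age and strain of the mice were not given in the sources used here. Nuclei were isolated from homogenised tissue and run on 10x Genomics droplets, and transcripts were counted as unique molecular identifiers (UMIs). Of 8 labelled libraries, 5 were used, those where the columns of the matrix equalled the barcodes of the library in number: by their labels 1 from an nTg female, 2 from Tg females and 2 from Tg males. The matrices of the other 3, all labelled nTg, held the same values as those of 3 Tg libraries and were not analysed here. The labels do not say whether 1 library is 1 animal, so the spread between libraries may be partly technical.

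The 5 libraries held between 25045167 and 38593706 UMIs, and after filtering 34224 nuclei remained (5773 to 8817 per library). Pairs of libraries shared between 14 and 28 barcode sequences, at most 0.341% of the smaller list. Ccna2, the gene of the transgene, went against 2 labels: in cardiomyocytes it stood at 444 counts per 1000000 UMIs (CPM) in the library labelled nTg female 1 and at 0.523 CPM in the library labelled Tg female 1, against 827 CPM in the other Tg female library and 231 and 143 CPM in the pair of Tg male ones. Libraries are therefore named by their labels throughout. Clusters were named from marker genes, with the 10 genes, their listed partners, Ccna2 and sex-linked genes left out of the clustering. A name such as cardiomyocyte stands for a cardiomyocyte-like cluster. The 12 types compared ranged from 12285 fibroblast and 6559 cardiomyocyte nuclei to 105 mesothelial and 68 B lymphocyte nuclei. In cardiomyocytes the 10 cardiomyocyte markers summed to between 43834 and 55362 CPM.

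Each level below is the mean CPM ± SD over the 5 libraries, computed from the UMIs summed per library and cell type. It compares cell types for a gene, not one gene with another. As a share of the UMIs of that sum, it gives neither the number of nuclei of a type nor the RNA in each. The cell types are clusters of the same nuclei, so the order of the levels is a description with no test.

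**Figure D1:**
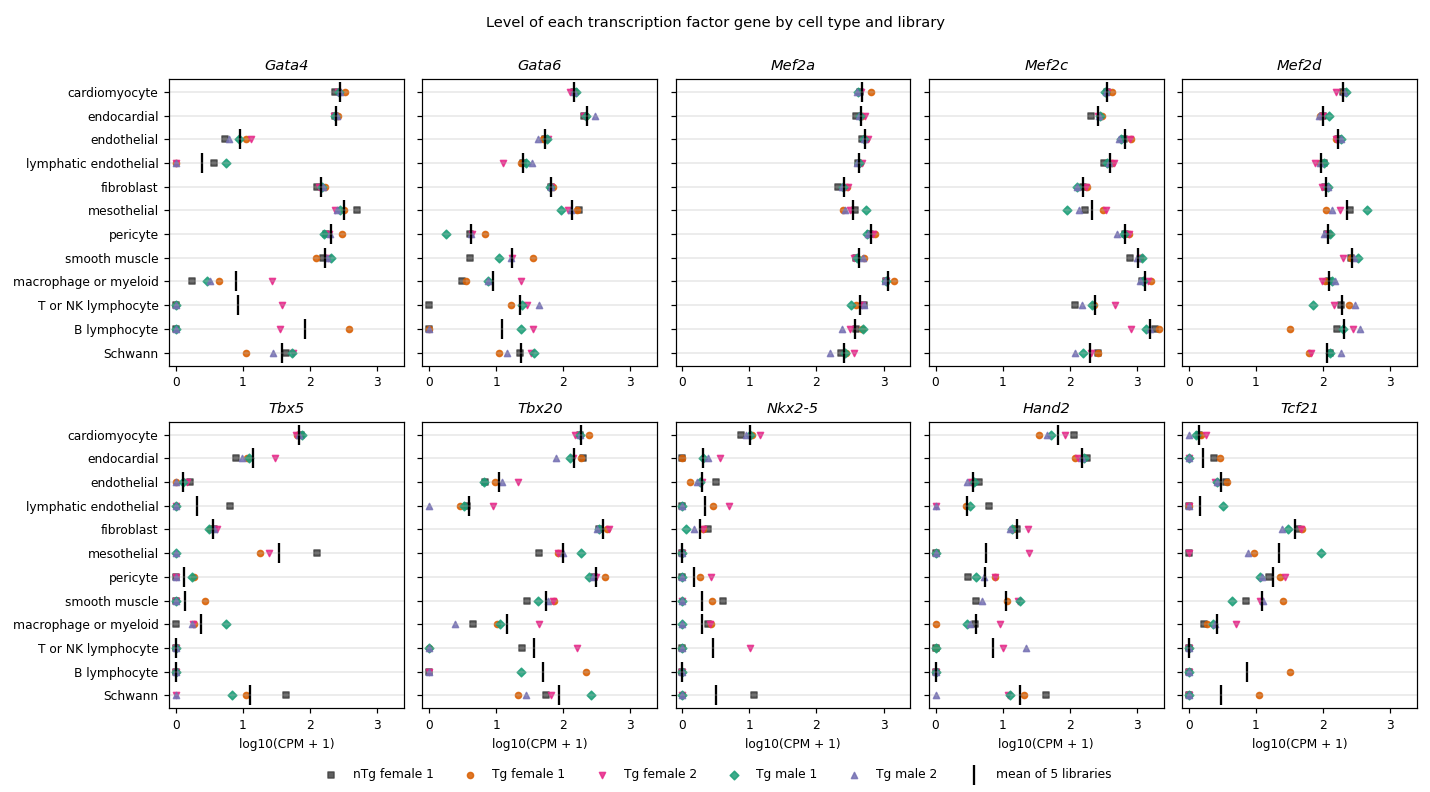
Level of each of the 10 genes as log10(CPM + 1) on the x axis in 12 cell types, with 1 point per library and a black bar at the log of the mean. Tbx5 and Nkx2-5 are high in cardiomyocytes alone among the well-filled types, Tcf21 in fibroblasts, Hand2 and Gata6 in endocardial nuclei, and the 3 Mef2 genes are seen in every type.

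GATA4 and GATA6 are zinc-finger factors that bind the sequence GATA, and both are needed for the embryonic heart muscle. Gata4 was high in 6 cell types whose ranges formed an unbroken series. It stood at 317 ± 110 CPM in mesothelial nuclei, which rest on 112 UMIs, and at 275 ± 36.0 CPM in cardiomyocytes. Endocardial nuclei followed with 240 ± 14.4 CPM, pericytes with 202 ± 53.7 CPM, smooth muscle with 167 ± 30.7 CPM and fibroblasts with 146 ± 16.7 CPM. None of these neighbours were separated by the ranges of their libraries, and the first place went to cardiomyocytes without the library labelled nTg female 1 (285 against 270 CPM) and with called doublets kept (266 against 244 CPM). Below them, endothelial nuclei held 7.96 CPM and lymphatic endothelial nuclei 1.44 CPM, so the endocardium differed from the other endothelia by more than any spread between libraries. Cardiomyocytes, being many and deep, supplied 63.9% ± 4.04 of all Gata4 UMIs.

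Gata6 had another order. Its highest level, 228 ± 42.0 CPM, was in endocardial nuclei, whose lowest library (200 CPM) lay above the highest of the cardiomyocytes (152 CPM). Cardiomyocytes stood at 142 ± 10.8 CPM and mesothelial nuclei at 133 ± 31.0 CPM, and these overlapped. Fibroblasts held 65.1 ± 2.06 CPM and endothelial nuclei 51.6 ± 6.59 CPM. Each of these was separated from its neighbours. Pericytes, which were rich in Gata4, held 3.23 CPM of Gata6. Gata6 overlaps 504 bases of 1010001N08Rik, a noncoding gene on the opposite strand, and whether the counting used strand is not given in the sources used here.

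TBX5 and TBX20 are T-box factors; TBX5 is a regulator of septation and of the conduction system, and TBX20 of the chambers and valves. Tbx5 was the more restricted of the pair. In cardiomyocytes it stood at 72.2, 62.7, 61.1, 75.8 and 68.2 CPM in nTg female 1, then Tg female 1 and 2, then Tg male 1 and 2 by label, a mean of 68.0 ± 6.19 CPM. Endocardial nuclei had 13.2 ± 8.81 CPM, every library of them below every cardiomyocyte library, and fibroblasts 2.56 ± 0.377 CPM. The mesothelial mean of 33.2 CPM rests on 7 UMIs. Cardiomyocytes supplied 93.6% ± 2.94 of all Tbx5 UMIs. The share of nuclei with a Tbx5 UMI was 36.4% in cardiomyocytes and 0.0608% in endothelial nuclei, a type with the gene at or near 0; after each nucleus was thinned to 1000 UMIs the shares were 6.22% and 0.0156%. Median depth was 5756 to 8021 UMIs in cardiomyocytes and 1573 to 2208 UMIs in endothelial nuclei, and thinning left out 61 and 343 shallower nuclei.

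Tbx20 was led by cells outside the muscle. Fibroblasts stood at 341, 450, 481, 343 and 322 CPM in the order of libraries above, a mean of 387 ± 72.7 CPM. Pericytes held 305 ± 70.0 CPM and overlapped with them. Cardiomyocytes stood at 183 ± 32.7 CPM, with every library below every pericyte library, and overlapped with endocardial nuclei at 144 ± 47.5 CPM. Lymphatic endothelial nuclei had 2.93 CPM and endothelial nuclei 10.2 CPM. By origin of the UMIs, 49.2% ± 8.22 came from fibroblasts and 34.8% ± 8.65 from cardiomyocytes.

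Nkx2-5, a homeodomain factor that marks heart muscle from its first stages, was low but nearly confined to 1 type among the well-filled ones. Cardiomyocytes held 6.45, 9.87, 13.3, 9.15 and 7.98 CPM, a mean of 9.36 ± 2.57 CPM from 465 UMIs. The other 11 types had means of at most 2.14 CPM, and the highest of those, in Schwann nuclei, came from a single UMI. Every cardiomyocyte library lay above every library of the endothelial, endocardial, fibroblast, macrophage, pericyte and smooth muscle nuclei. In cardiomyocytes 6.69% ± 0.965 of nuclei had a UMI of Nkx2-5, against 0.232% of fibroblast nuclei, which were shallower (median 2065 to 3013 UMIs); thinned to 1000 UMIs, the shares were 0.780% and 0.0887%. The sequence upstream of its RefSeq start is shown because Nkx2-5 is, with Tbx5, the member most restricted to muscle nuclei. It spans chr17:26841609-26841815 (minus strand, GRCm38.p6, RefSeq), leaving out the 43 bases next to the RefSeq start that GENCODE places in an exon of the gene. GENCODE places the whole gene at chr17:26838664-26845009. The printed bases therefore lie inside its span, and are upstream of the RefSeq start only. Capitals mark the only match to any motif searched, an E-box.
Nkx2-5: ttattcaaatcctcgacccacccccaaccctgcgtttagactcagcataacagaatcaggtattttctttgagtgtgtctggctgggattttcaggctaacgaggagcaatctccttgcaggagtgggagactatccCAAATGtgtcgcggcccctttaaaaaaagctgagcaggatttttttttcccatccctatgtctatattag
The 250 bases before each start were searched on both strands for the motif AGATAA of GATA factors, the motif TNAAGTG of NKX factors, the motif AGGTGT of T-box factors, the E-box CANNTG of helix-loop-helix factors (a palindrome counted once), the TATA box with the letters TATAAA and the MEF2 consensus. Starts of 7 of the 10 genes were in the table (9 starts in all), and Gata4, Gata6 and Tbx5 were without an entry. The share of all 32851 mouse windows of that length with a match was 9.99% for GATA, 10.1% for NKX, 11.8% for T-box, 66.2% for the E-box, 12.4% for the TATA box and 2.92% for MEF2. Such a match describes letters and not a bound site.

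HAND2, a basic helix-loop-helix factor of the right ventricle, the endocardium and the sympathetic nerves, is encoded by a gene that lies mostly under another one. Hand2 lies at chr8:57320983-57324633 (plus strand, GRCm38), and the long noncoding gene Hand2os1 covers 3251 bases of it on the opposite strand. Reads of the 2 genes cannot be told apart where strand was not used. The 250 bases before the Hand2 start, chr8:57320733-57320982, hold the RefSeq start of Hand2os1, 123 bases away from that of Hand2. They are shown because both genes share this stretch, with 2 E-boxes and a GATA match on the minus strand in capitals.
Hand2: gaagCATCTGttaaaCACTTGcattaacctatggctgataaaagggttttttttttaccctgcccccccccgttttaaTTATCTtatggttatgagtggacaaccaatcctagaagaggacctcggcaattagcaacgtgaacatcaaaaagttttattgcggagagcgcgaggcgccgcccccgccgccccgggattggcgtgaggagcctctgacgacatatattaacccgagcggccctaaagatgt
Hand2 was highest in endocardial nuclei, at 178, 120, 133, 164 and 150 CPM, a mean of 149 ± 23.2 CPM. Cardiomyocytes came next with 66.0 ± 34.2 CPM, and all of their libraries lay below the lowest endocardial one. Schwann nuclei (17.1 CPM from 9 UMIs) and fibroblasts (15.1 ± 4.37 CPM) followed. Hand2os1 had the same pair of types at its head, with 898 ± 272 CPM in endocardial nuclei and 437 ± 120 CPM in cardiomyocytes.

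TCF21, a helix-loop-helix factor of the epicardium and of fibroblasts, was led by fibroblasts. Fibroblasts held 41.7, 47.2, 46.1, 28.9 and 23.6 CPM of Tcf21, a mean of 37.5 ± 10.6 CPM, and 87.3% ± 1.57 of its UMIs. Pericytes held 16.9 ± 6.82 CPM and smooth muscle 11.3 ± 8.08 CPM. Cardiomyocytes had 0.404 CPM. The mesothelial mean of 21.3 CPM came from 3 UMIs in all. In pericytes the 9 fibroblast markers summed to between 1522 and 1937 CPM, against 9718 to 14800 CPM in fibroblasts themselves, and the part of such RNA in the pericyte level was not tested. All 2894 bases of Tcf21 lie within Gm10824, an antisense gene. The window before its start held 1 match to AGATAA, in the 31 bases next to the start that GENCODE places in an exon of the gene, and none to the other motifs.

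MEF2 proteins bind A/T-rich elements of muscle genes and are shared with blood and vessel cells. Mef2a was highest in the nuclei named macrophage or myeloid, written as macrophages here, at 1147 ± 161 CPM, and the lowest macrophage library (1036 CPM) lay above every library of every other type compared. Pericytes (641 ± 74.5 CPM), endothelial nuclei (527 ± 41.8 CPM) and cardiomyocytes (474 ± 95.9 CPM) followed as overlapping neighbours, and fibroblasts were last with 257 CPM. Mef2a shares 76168 bases with Lysmd4, a protein-coding gene on the opposite strand.

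Mef2c was highest in B lymphocytes, at 1564 ± 497 CPM from 240 UMIs, and in macrophages, at 1344 ± 217 CPM, which overlapped. Smooth muscle had 1043 ± 158 CPM, endothelial nuclei 676 ± 122 CPM and pericytes 670 ± 105 CPM. Cardiomyocytes stood at 363 ± 39.7 CPM, with every library below every library of those 5 types, and fibroblasts at 155 CPM. Mef2d was the most even of the 10: its means ran from 269 ± 51.2 CPM in smooth muscle and 198 ± 23.5 CPM in cardiomyocytes to 91.8 CPM in lymphatic endothelium. It shares 531 bases with the antisense gene 1700113A16Rik.

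Within a named type, several of the genes differed between clusters. The highest Tbx20 among these clusters was in an unnamed one of 326 nuclei led by Wif1, Cadps and Dkk3. This cluster had 1 raised marker of the fibroblast list, its best-scoring one, and was singled out after its values were seen. Tbx20 stood there at 1978, 2120, 1056, 1360 and 912 CPM, a mean of 1485 ± 542 CPM, from 604, 729, 317, 188 and 78 UMIs. The 4 fibroblast clusters had means of 349 to 413 CPM, and the highest of their libraries (530 CPM) lay below the lowest of the unnamed cluster. The same nuclei held 222 CPM of Gata4, 162 CPM of Gata6, 64.9 CPM of Hand2 and 42.2 CPM of Tbx5, with 10.8 ± 4.62 CPM of Tcf21. The 9 fibroblast markers summed to between 3353 and 5605 CPM in all unnamed nuclei together.

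Gata6 also split the endothelium. In the cluster led by Gkn3, Atp2b2 and Dkk2 it stood at 148 ± 35.7 CPM (lowest library 101 CPM), and in the cluster led by Col13a1 and Lhx6 at 72.6 CPM (60.2 to 95.5 CPM over the libraries). The cluster led by Car4, the largest, held 33.5 ± 5.29 CPM. Among the macrophage or myeloid nuclei, the cluster led by F13a1 had 1215 ± 160 CPM of Mef2a and 1444 ± 279 CPM of Mef2c. The small cluster led by Cd209a (140 nuclei) had 6 of the 10 myeloid markers raised but 0 among its 10 leading genes, which include Flt3 and Itgax, known from dendritic cells. It had 640 ± 86.8 CPM and 655 ± 83.5 CPM, with no overlap between the libraries for either gene. Tcf21 varied little among fibroblast clusters, from 33.0 ± 11.0 to 45.7 ± 15.7 CPM.

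**Figure D2:**
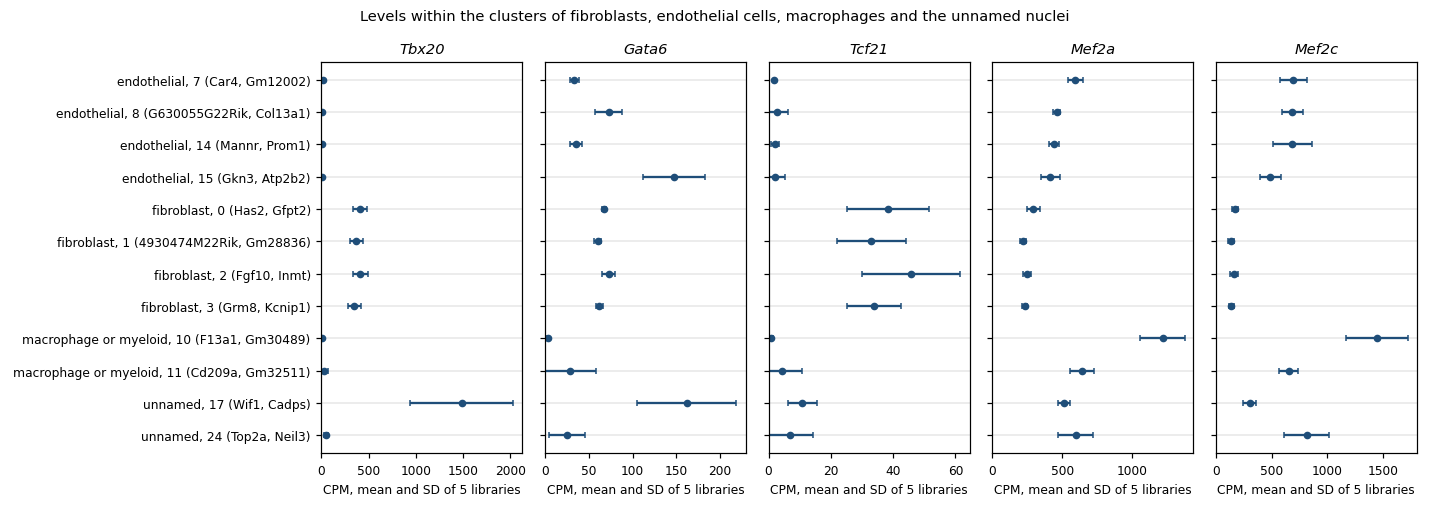
Mean CPM with its SD over 5 libraries (x axis, from 0) of 5 genes in each cluster of endothelial, fibroblast, macrophage and unnamed nuclei, with 2 leading genes of each cluster in brackets. The unnamed cluster led by Wif1 stands at 1485 CPM of Tbx20 while the fibroblast clusters lie between 349 and 413 CPM, and Gata6 is highest among endothelial clusters in the one led by Gkn3.

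Cardiomyocyte nuclei were clustered again into 6 states. State 6, of 128 nuclei, was led by Fgf12, Robo1, Cntn2 and Cpne5 and had all 5 conduction-system markers raised, so it is called conduction-like. Its markers of atrial muscle were raised too (528 to 1732 CPM in sum, against 552 to 1963 CPM for the conduction list). In the other states the highest library held 232 CPM for the atrial list (state 5) and 254 CPM for the conduction list (state 2). Markers of stressed muscle summed to 1785 to 7605 CPM in state 6, against at most 4445 CPM in the others (state 1). Endocardial markers summed to 729 to 1534 CPM, against at most 926 CPM (state 1). Both of these lists overlapped with state 1. The libraries labelled nTg female 1 and Tg male 2 gave 10 nuclei each to state 6. In this state Tbx5 stood at 344, 214, 258, 443 and 141 CPM. In the other cardiomyocyte nuclei of the same libraries it stood at 69.8, 59.9, 56.6, 68.6 and 67.6 CPM. The state was above the rest in 5 of 5 libraries, 4.34-fold by the ratio of the means, and its lowest library lay above the highest of the rest. Whether its Tbx5 goes with the conduction, atrial, stressed-muscle or endocardial markers was not tested.

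Mef2c was lower in this state, at 49.2, 136, 108, 152 and 47.0 CPM against 356, 437, 360, 334 and 346 CPM in the rest. All 5 libraries were lower, by 3.73-fold for the means, and the groups did not overlap. Tbx20 was also lower in 5 of 5 libraries, 70.7 ± 35.6 CPM against 184 CPM, and so was Gata6, 80.1 ± 14.3 CPM against 143 CPM. The difference in Gata4 was smaller, 355 ± 74.9 CPM against 274 CPM, and the groups overlapped although each library was higher in the state. Hand2 rested on 42 UMIs and Nkx2-5 on 11 UMIs in this state, and neither kept to 1 side of the rest in every library. When states were drawn more coarsely (resolution 0.3), the group led by Cntn2 held 380 nuclei and got no name from its markers. Its log2 ratio to the rest was 0.75 for Tbx5, -0.29 for Mef2c, -0.17 for Gata6, 0.13 for Gata4 and 0.07 for Tbx20.

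**Figure D3:**
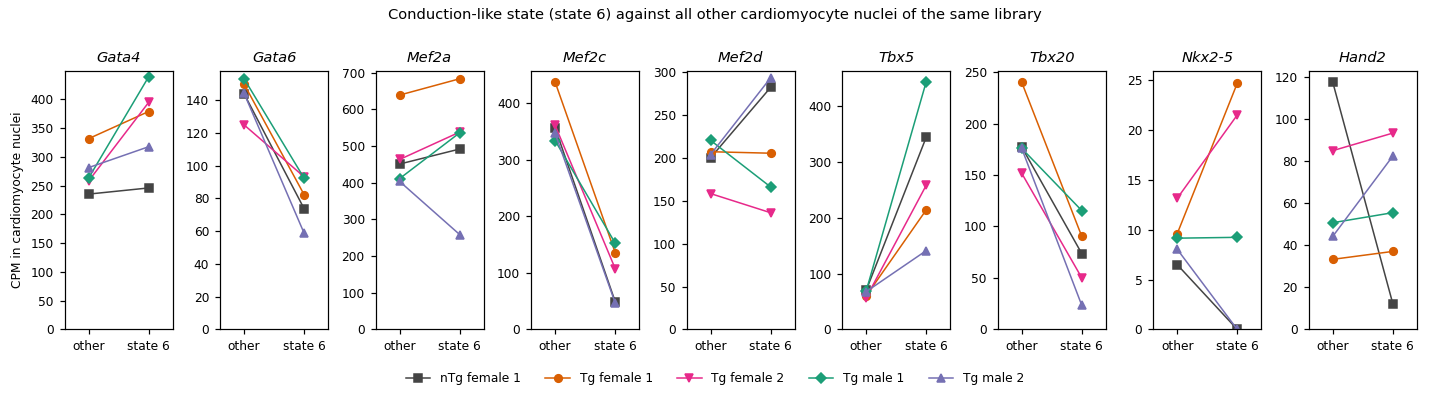
CPM of 9 of the genes (y axis, from 0) in the conduction-like state and in all other cardiomyocyte nuclei, with a line for each library. All 5 libraries are higher in the state for Tbx5 and Gata4 and lower for Mef2c, Tbx20 and Gata6, while for Mef2a, Mef2d, Nkx2-5 and Hand2 the lines go both ways.

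The other states differed less. State 1, of 1138 nuclei with Abcg2, Nppa and Myot among its leading genes, held 221 ± 39.2 CPM of Tbx20 against 171 CPM in the rest, higher in 5 of 5 libraries, and 58.4 CPM of Tbx5 against 70.9 CPM, lower in 5 of 5. State 2, led by Rp1 and Epha6, had 532 ± 121 CPM of Mef2a against 448 CPM and 74.3 ± 5.10 CPM of Tbx5 against 65.0 CPM, both higher in 5 of 5 libraries. State 4, where Ccna2 stood at 4813 CPM, was seen in 4 libraries, and Mef2a (395 ± 33.3 against 435 CPM) and Mef2d (165 ± 27.6 against 197 CPM) were lower in all 4. State 5 had the most Tcf21, 4.08 CPM. Its 617 nuclei were led by Ebf1 and Flt1, and its 9 endothelial markers summed to between 269 and 409 CPM and its 9 fibroblast markers to between 241 and 612 CPM; the part of other cells in it was not tested.

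Among the genes with at least 20 CPM in cardiomyocytes, Hand2 varied most between libraries. Nkx2-5, below that level, ranged from 6.45 to 13.3 CPM. Hand2 stood at 117, 33.3, 85.1, 50.8 and 44.5 CPM in the same order of libraries. Its highest library was 3.50-fold above its lowest; the ratio was 1.22 to 1.59 for the other 7 genes with at least 20 CPM, and its median over 6231 such genes was 1.35. A ratio as large as that of Hand2 was seen in 1.54% of those genes. For the ratios of Mef2a and Tbx20 the shares were 22.8% and 22.9%. Ccna2 in the same nuclei was lowest in the library where Hand2 was lowest, and high in the 2 where Hand2 was highest. With 5 libraries no correlation is given. Hand2os1 had another order, 548, 291, 322, 495 and 525 CPM. In endocardial nuclei Hand2 spanned a ratio of 1.48 only.

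The library labelled Tg female 1 had the highest cardiomyocyte level of Gata4 (332 CPM against 235 to 281 CPM in the others), Mef2a (639 against 402 to 465 CPM), Mef2c (431 against 330 to 355 CPM) and Tbx20 (237 against 149 to 176 CPM). It was also the library with 0.523 CPM of Ccna2. The library labelled Tg female 2 stood apart in macrophages: Gata4 was 25.8 CPM there against 0.71 to 3.36 CPM in the others, and Tbx20 41.9 CPM against 1.47 to 10.3 CPM. The fibroblast markers in its macrophages summed to 1228 CPM, against 247 to 373 CPM in the others, and the 7 pericyte markers to 124 CPM, against 35.5 to 42.4 CPM. Fibroblast markers were highest in this library in other types too. They summed to 1143 CPM against 339 to 436 CPM in endothelial nuclei and to 893 against 186 to 307 CPM in lymphatic endothelium. In cardiomyocytes the sum was 273 against 74.4 to 121 CPM. This library was not the highest in Schwann, mesothelial or B lymphocyte nuclei, nor in fibroblasts themselves. The part of such RNA in the macrophage levels was not tested.

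**Figure D4:**
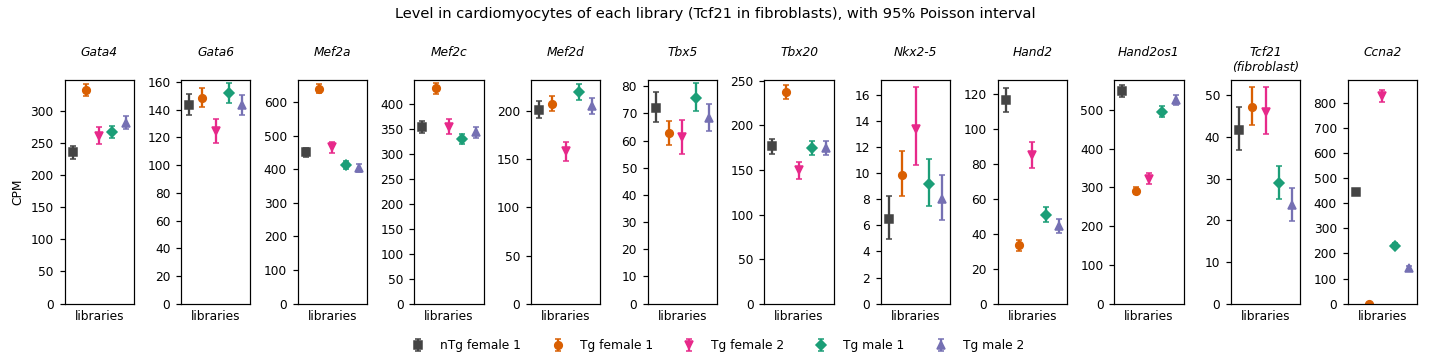
CPM (y axis, from 0) of each gene in the cardiomyocytes of each library, Tcf21 in fibroblasts, with Hand2os1 and Ccna2 beside them; bars are 95% Poisson intervals and cover counting error only. Hand2 runs from 33.3 to 117 CPM, and the library labelled Tg female 1 is the highest for Gata4, Mef2a, Mef2c and Tbx20 and close to 0 for Ccna2.

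The single library labelled nTg allows no test of the genotype label. In its cardiomyocytes Hand2 was above, and Nkx2-5 and Gata4 below, all 4 libraries labelled Tg. Its 95% Poisson intervals were 110 to 124 CPM for Hand2 (1121 UMIs), 4.94 to 8.26 CPM for Nkx2-5 (62 UMIs) and 226 to 245 CPM for Gata4. The other 7 genes lay within the range of the Tg libraries. Since Ccna2 in that library went against its label, no direction is drawn from it.

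Female and male hearts were compared within the 4 libraries labelled Tg, 2 of each sex, in the 8 cell types with at least 50 nuclei in every library. Ccna2 in the cardiomyocytes of these libraries was uneven: 0.523 and 827 CPM in Tg female 1 and 2, 231 and 143 CPM in Tg male 1 and 2. With these libraries, effects of sex and of this unevenness cannot be told apart. None of the 10 genes passed edgeR's quasi-likelihood test in any of the 8 cell types, over 50 tests of genes that had enough counts. The unadjusted p was under 0.05 in 7 of the 50 (14%), where it was so in 7.56% of the tests of all genes, and DESeq2 called 0, with 4 unadjusted. Among all genes edgeR called few: 0.0264% in cardiomyocytes, 0.472% in fibroblasts, 0.131% in endothelial, 0.247% in endocardial and 0.27% in lymphatic endothelial nuclei, 0.0905% in macrophages, 0.156% in pericytes and 0.14% in smooth muscle. The number of genes that had enough counts was 9 in cardiomyocytes and in fibroblasts, 7 in endocardial nuclei, 6 in endothelial nuclei and in pericytes, 5 in smooth muscle, and 4 in lymphatic endothelium and in macrophages.

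Tcf21 came closest. In fibroblasts the female libraries held 47.2 and 46.1 CPM and the male ones 28.9 and 23.6 CPM, without overlap, and the library labelled nTg female 1 (41.7 CPM) lay on the female side. The log2 difference, female over male, was 0.74 ± 0.18 (SE), with an unadjusted p of 0.00322 and an adjusted p of 0.174 by edgeR. In pericytes it was 1.10 ± 0.40, from 21.8 and 26.3 against 10.5 and 11.5 CPM (adjusted p = 0.579, edgeR), and fibroblast markers there summed to 1907 and 1937 CPM in the female and 1545 and 1529 CPM in the male libraries. With no filter on low counts Tcf21 in fibroblasts passed edgeR's test (log2 0.73, adjusted p = 0.0262), among 699 genes called there in place of 72.

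Mef2c and Tbx20 were higher in both female than in both male libraries in several types, without passing the test. Mef2c in endothelial nuclei stood at 826 and 781 CPM in the female and at 579 and 551 CPM in the male libraries (log2 0.44 ± 0.18, adjusted p = 0.506, edgeR). In fibroblasts its difference was 0.38 ± 0.16 on the log2 scale (adjusted p = 0.483, edgeR). Tbx20 differed by 0.63 ± 0.26 in endocardial nuclei (adjusted p = 0.627, edgeR) and by 0.51 ± 0.22 in pericytes (adjusted p = 0.697, edgeR). Leaving out 1 library moved the first to between 0.34 (without Tg male 2) and 1.00 (without Tg male 1), and to 0.38 without Tg female 1; it moved the second to between 0.24 (without Tg female 1) and 0.72 (without Tg female 2). Mef2d in macrophages was lower in both female libraries, at 107 and 95.1 CPM against 133 and 152 CPM (log2 -0.52 ± 0.21, adjusted p = 0.76, edgeR). These 5 differences and both of Tcf21 were the 7 with an unadjusted p under 0.05.

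In cardiomyocytes no difference by sex passed the test. The log2 differences, female over male, were 0.08 ± 0.20 for Gata4, -0.15 ± 0.18 for Gata6, -0.25 ± 0.16 for Tbx5, 0.12 ± 0.25 for Tbx20, 0.38 ± 0.24 for Nkx2-5 and 0.25 ± 0.38 for Hand2. They were 0.40 ± 0.22 for Mef2a, 0.19 ± 0.19 for Mef2c and -0.25 ± 0.20 for Mef2d. Both female libraries lay above both male ones for Mef2a, Mef2c and Nkx2-5, and below them for Tbx5. Missing the threshold with 2 libraries a sex does not show that the levels were alike. Without the library labelled Tg female 1, edgeR called Tbx20 (log2 2.67, adjusted p = 0.00523) and Gata4 (log2 3.50, adjusted p = 0.00267) in macrophages. The female side is then the 1 library whose macrophages held the most fibroblast markers, and its spread is assumed to be that of the males.

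**Figure D5:**
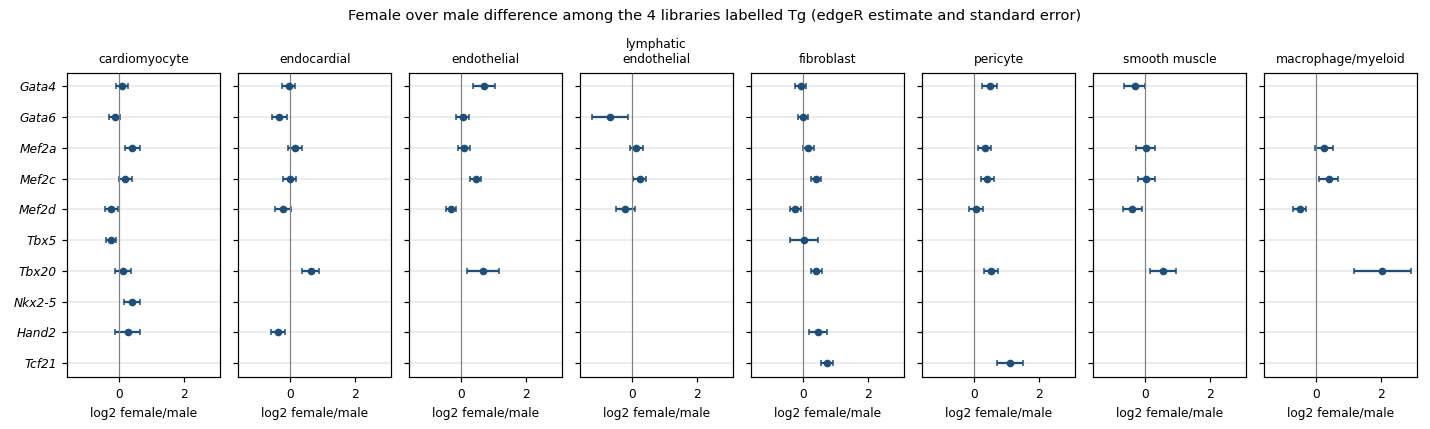
Female over male log2 difference (x axis) with its standard error by edgeR, for each gene with enough counts in 8 cell types of the 4 libraries labelled Tg. Tcf21 lies at 0.74 in fibroblasts and 1.10 in pericytes, the differences in cardiomyocytes lie between -0.25 and 0.40, and none has an adjusted p under 0.05.

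Cardiomyocyte nuclei with at least 10 Ccna2 UMIs (109 and 114 in the libraries with the labels nTg female 1 and Tg female 2, then 70 and 36 in both Tg male ones) were set against those with none in the same library. The library labelled Tg female 1 had no such nucleus. Of 9 genes tested, edgeR called 0 and DESeq2 0, where edgeR called 0.253% of all 11881 genes. By edgeR 1 of the 9 had an unadjusted p under 0.05, beside 5.88% of all genes. Mef2a had the lowest p: 436, 436, 370 and 342 CPM in Ccna2-high nuclei against 455, 471, 417 and 403 CPM, a log2 difference of -0.13 ± 0.06 (adjusted p = 0.813, edgeR). Hand2, which varied with the library, stood at 126, 74.0, 37.7 and 46.1 CPM in Ccna2-high nuclei and at 116, 86.6, 51.8 and 44.6 CPM in those with none, a log2 difference of -0.07 ± 0.12. The range over the libraries, 37.7 to 126 CPM and 44.6 to 116 CPM, was wider than the gap between the 2 sets of nuclei within any of them. The Tg male libraries alone lay closer to each other than the 2 sets did within Tg male 1. Gata4 differed by 0.09 ± 0.07, Tbx20 by 0.11 ± 0.09, Gata6 by 0.03 ± 0.09 and Tbx5 by -0.06 ± 0.13 on the log2 scale.

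Further lists of genes around these factors were read in the same fits: 34 partner factors, 10 regulators of MEF2 (class II histone deacetylases, kinases and a calcineurin subunit) and 26 textbook target genes of the heart muscle. By sex, edgeR called 1 of 24 partners tested in fibroblasts and none of the partners tested in the other 7 types, none of the regulators and none of the targets. At an unadjusted p under 0.05 a type had 0 to 2 partners, 0 to 2 regulators and 2 to 8 targets, beside 4.69% to 9.77% of all genes by type. The 8 targets were among 22 tested in pericytes, where 6.73% of all genes had such a p. The partner was Hey2, a Notch-responsive repressor, lower in female fibroblasts (log2 -2.39 ± 0.37, adjusted p = 0.0385, edgeR). In cardiomyocytes the median log2 difference was -0.04 for 25 partners, -0.06 for 10 regulators and 0.06 for 26 targets, beside 0.01 for all genes. In fibroblasts it was -0.0039, -0.10 and 0.34, beside 0.02. The targets are also cardiomyocyte genes. In fibroblasts the 10 cardiomyocyte markers summed to 1920 and 2487 CPM in the female and 1695 and 1772 CPM in the male libraries. In pericytes the sums were 2586 and 3130 against 2167 and 2251 CPM, and in endothelial nuclei 2998 and 3125 against 2637 and 2517 CPM. In smooth muscle the sexes overlapped (3487 and 3018 against 3128 and 3059 CPM). The part of cardiomyocyte RNA in the target differences was not tested.

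Of the listed genes with the lowest p in cardiomyocytes, Nppb, a natriuretic peptide gene of stressed muscle, had a log2 difference of 1.43 ± 0.23 (adjusted p = 0.277, edgeR) and Kcnh2 one of -0.41. Hopx had 0.70 and Ankrd1 0.89 among the partners, and Hdac9 0.66 and Hdac4 -0.48 among the regulators. In fibroblasts Prkd1, a kinase that acts on class II deacetylases, stood at -1.12 ± 0.21 (adjusted p = 0.0846, edgeR), Hdac9 at 0.88, Nppb at 3.07 (adjusted p = 0.0631, edgeR) and Myl3 at 0.66. In endothelial nuclei the values were -0.53 for Gata2, 0.54 for Hopx, -0.92 for Sik1, -0.61 for Prkd1, 3.05 for Nppb (adjusted p = 0.0583, edgeR) and 0.80 for Slc8a1. In endocardial nuclei they were -1.15 for Nfatc2, 0.92 for Hey2, -0.75 for Hdac4, 0.35 for Ppp3ca, 0.83 for Slc8a1 and 1.13 for Gja1.

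In lymphatic endothelium the values were -1.01 for Nfatc2, -0.61 for Mrtfb, -2.17 for Sik1, 0.61 for Hdac9, 1.22 for Tnnc1 and 0.88 for Slc8a1. In macrophages they were 1.90 for Nr2f2, 2.28 for Zfpm2, -1.13 for Sik1, 0.52 for Camk2d, 2.44 for Nppb and 0.75 for Myl3, with the fibroblast markers given above high in 1 of the female libraries. In pericytes they were 0.40 for Tbx2, 0.55 for Ankrd1, 0.66 for Hdac9, 0.85 for Sik1, 3.27 for Nppb and 2.18 for Gja1. In smooth muscle they were 0.60 for Meis2, -0.55 for Smyd1, -0.27 for Ppp3ca, 0.26 for Hdac9, 1.53 for Tcap and 0.69 for Myh6. None of the genes given for these 4 types passed the threshold.

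Between Ccna2-high nuclei and those with none, 1 of 25 targets was called, beside 0.253% of all genes, and 8 of the 25 had an unadjusted p under 0.05, beside 5.88% of all genes. Nppa, the atrial natriuretic peptide gene that GATA4, NKX2-5 and TBX5 are known to activate, was lower in the Ccna2-high nuclei (log2 -1.35 ± 0.20, adjusted p = 2.32e-05, edgeR). Ccna2 stood at 82.1 CPM in state 1, which has Nppa among its leading genes, and at 7.17 CPM in state 6, with raised atrial markers. It stood at 81.6, 109, 4813 and 304 CPM in states 2 to 5. The part of the states in the difference of Nppa was not tested. Pln, the inhibitor of the calcium pump, stood at -0.12 (adjusted p = 0.59, edgeR). None of 23 partners passed (Foxp1 -0.15 and Zfpm2 -0.11 had the lowest p), nor any of 9 regulators (Hdac4 -0.10 and Hdac7 0.19). The median log2 differences were -0.02 for partners, 0.02 for regulators and -0.0002 for targets, beside 0.0025 for all genes.

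Likeness of pattern was read as Pearson's r of log2(CPM + 1) over the means of the 12 cell types, among 13053 genes with at least 20 CPM in 1 type. The types share libraries and differ in depth, and no p is given. The gene most like Nkx2-5 was Asb15 (r = 0.971), ahead of Tmem82 (0.970) and Kcnip2, a potassium channel subunit of heart muscle (0.966). Tbx5 was most like the desmosome gene Dsg2 (0.949), with Tfdp2 (0.936) and Wnk4 (0.928) next. Gata4 and Tbx20 had the same closest gene, Magi2 (0.918 and 0.897), and Gata4 was the second closest to Tbx20 (0.874). The next for Gata4 were Nckap5 (0.890) and Sema5a (0.889), and for Tbx20 Adamts3 (0.853).

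For Gata6 the closest was 1010001N08Rik (0.966), its overlapping neighbour, followed by Tmtc1 (0.911) and Gm44020 (0.892). For Mef2a it was Lysmd4 (0.934), which overlaps it, followed by Gm5431 (0.822) and Retnla (0.818). Mef2c was most like Gm44751 (0.849), Cd180 (0.820) and Clec12a (0.816), and Mef2d like Mmd (0.844), Ell2 (0.837) and Smg5 (0.817), the last on the same chromosome. Hand2 was most like Fgf14 (0.920), Ephx2 (0.881) and Gm16226 (0.875). Tcf21 was most like Gabra3 (0.907), the collagen receptor gene Ddr2 (0.905) and C1s1 (0.904). Within the 10, the r of Gata4 with Gata6 was 0.345, and that of Gata6 with Mef2c was -0.609.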

How the data were processed

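Nuclear RNA was measured in 5 libraries as deposited UMI counts per gene and nucleus, made by the authors with Cell Ranger 7.0.0 per the file headers, on mm10 per the submitters' processing notes; the strand setting was not given in the sources used here. Groups were taken from the labels. Nuclei with at least 200 genes and under 5% mitochondrial counts were kept, doublets called by Scrublet were removed (7.63% to 11.4% per library; the library labelled Tg female 2 by the median threshold of the others), and 25 Leiden clusters (scanpy 1.11.5, resolution 1; cardiomyocyte states at 0.5) were named by marker lists. Counts were summed per library and type and tested with edgeR 4.0.16 (TMM, quasi-likelihood F-test, Benjamini-Hochberg over all genes, threshold 0.05), female against male in 4 libraries, and Ccna2-high against Ccna2-zero nuclei with the library as block. DESeq2 1.42.0 was an alternative. The scripts were tested on simulated data. Poisson, binomial and floor limits cover counting error only. P-values by sex measure the spread between libraries. Those of the Ccna2 comparison measure how the difference within a library varied from library to library. The text names all 10 genes, and of each list the called genes or else the 2 with the lowest p. The genes and lists were chosen with earlier results of these data known. The 3 matrices repeated under other labels were left out.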

Additional observations from a re-analysis of the deposited data

Results flagged for a closer look

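In 2 cell types of the 4 libraries labelled Tg, the Hand2 levels of the sexes lay apart in opposite directions. In fibroblasts both female libraries (13.3 and 22.6 CPM) lay above both male ones (12.8 and 11.7 CPM), with a log2 difference, female over male, of 0.45 ± 0.28 (SE). The lower female library lay close to the higher male one there. Cardiomyocyte markers in fibroblasts summed to 1920 and 2487 CPM in the female and 1695 and 1772 CPM in the male libraries. The part of cardiomyocyte RNA in this Hand2 difference was not tested. In endocardial nuclei both male libraries (164 and 150 CPM) lay above both female ones (120 and 133 CPM), with a log2 difference of -0.38 ± 0.21 (SE). Neither passed edgeR's test (adjusted p = 0.718 and 0.779), and the difference between the types was not tested. In nTg female 1 by label, Hand2 stood at 15.3 CPM in fibroblasts and 178 CPM in endocardial nuclei, above both male libraries in each type.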

How the results depend on the processing

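Of 303 alternative values for 36 results, 245 were counted as the same, 56 moved and 1 was reversed. Another 1 came to pass the threshold (Tcf21 in fibroblasts without a filter on low counts, log2 0.73, adjusted p = 0.0262 by edgeR). A count was the same within a set fold of the main count, and a level or state ratio within 1 SD. A tested difference was the same where it stayed on its side of the threshold. Its sign was not weighed where neither fit passed. Of the 10 genes none was called by sex under any alternative but 2: 3 calls came without a filter on low counts (Tcf21 in fibroblasts, Gata4 and Tbx20 in macrophages) and 2 without the library labelled Tg female 1 (Gata4 and Tbx20 in macrophages, range 0 to 2 over the libraries left out). The adjusted p of Tcf21 in fibroblasts lay between 0.0262 and 0.931.

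The counts over all genes depended on the setting, and the cause was not tested. With DESeq2 the genes called by sex were 104 in cardiomyocytes in place of 4, 235 in fibroblasts in place of 72, 100 in endothelial nuclei in place of 17 and 23 in macrophages in place of 10. Without the filter they were 180, 699, 384 and 359 in these types, 153 in endocardial nuclei in place of 24, 69 in lymphatic endothelium in place of 19, 89 in pericytes in place of 16 and 93 in smooth muscle in place of 7. At the coarser clustering 5 were called in macrophages. With 1 library left out, which leaves 1 sex with a lone library assumed to vary like the other sex, they ranged from 58 to 210 in cardiomyocytes, 225 to 1193 in fibroblasts, 114 to 526 in endothelial, 7 to 49 in endocardial and 7 to 160 in lymphatic endothelial nuclei, 0 to 1103 in macrophages, 29 to 359 in pericytes and 39 to 178 in smooth muscle. For the Ccna2 comparison, DESeq2 called 16 genes in place of 30, no filter gave 67, no library block 12, and leaving out a library 21 to 38.

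The labels do not say whether female and male libraries with the same replicate number were handled together. The 2 pairs' deviations correlated at -0.035 to 0.143 over genes by cell type. The female libraries also differed in Ccna2, and there were few libraries per sex, so these correlations cannot decide whether the numbers mark pairs. With the replicate number as a block, 51 genes were called in cardiomyocytes, 312 in fibroblasts, 234 in endothelial and 43 in endocardial nuclei, 88 in pericytes and 12 in smooth muscle, and 0 of the 10 genes.

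With coarser cardiomyocyte states the log2 ratios of the group led by Fgf12 and Cntn2 (380 nuclei) were 0.75 for Tbx5, -0.29 for Mef2c, -0.17 for Gata6 and 0.0703 for Tbx20, which changed sign. Leaving out 1 library gave 1.91 to 2.30 for Tbx5, -2.14 to -1.74 for Mef2c, -1.65 to -1.18 for Tbx20, -0.94 to -0.74 for Gata6 and 0.27 to 0.43 for Gata4. After thinning, the highest share of nuclei with a UMI was in cardiomyocytes for Gata4 (22.8% against 20.2% in mesothelial nuclei), in mesothelial nuclei for Gata6 (24.0% against 17.5% in endocardial ones) and in Schwann nuclei, from a single nucleus, for Nkx2-5 (0.870% against 0.780% in cardiomyocytes). B lymphocytes formed no cluster of their own at the coarser clustering, so Mef2c has no value for it. Chosen after seeing the data, leaving out a library gave 1326 to 1629 CPM of Tbx20 in the cluster led by Wif1. Depth limits Nkx2-5 in the conduction-like state (11 UMIs) and all mesothelial values (3 nuclei in the smallest library).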

Other observations

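The unnamed cluster led by Top2a, of 129 dividing nuclei with all 6 cell-cycle markers raised, held 815 ± 200 CPM of Mef2c and 595 ± 126 CPM of Mef2a (SD, n = 5), with 46.9 CPM of Tbx20 and 25.1 CPM of Gata6. Hand2os1 in cardiomyocyte state 1 was above the rest in 5 of 5 libraries, as Mef2c and Tbx20 were, at 488 ± 147 CPM against 422 CPM. The pairs of the 10 genes with the most and the least alike patterns over the 12 cell types were Gata4 with Tbx20 (r = 0.874) and Gata6 with Mef2c (r = -0.609), given without a test.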
